A study of Mus musculus with 12 samples.

Results

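The enzymes that hydroxylate and crosslink collagen were represented by 10 genes in fibroblast-like synoviocytes, the resident connective tissue cells that line the joint, which were grown in culture from mice. They were 3 collagen prolyl 4-hydroxylase alpha subunits (P4ha1, P4ha2 and P4ha3), 3 lysyl hydroxylases (Plod1, Plod2 and Plod3) and 4 lysyl oxidases (Lox, Loxl1, Loxl2 and Loxl4). They were chosen by symbol from the 36875 gene symbols of the deposited count table, and all 10 were among the 15049 genes that passed the expression filter. Loxl3, the fifth lysyl oxidase, and P4hb, the beta subunit of prolyl 4-hydroxylase, were not among the 10 and are given beside them. Poly(A) RNA was sequenced in 12 libraries, 4 in each of 3 groups. The resolution group, called DOX OFF in its descriptions, came from mice whose 3-week course of 1 mg/ml doxycycline in 5% sucrose water had been stopped. The inflammation group, called DOX ON, came from mice given that doxycycline and sucrose water for 3 weeks. The homeostasis group, called WT, came from mice given 5% sucrose water alone for 3 weeks. The extraction protocol, which is the same for the 3 groups, names animals in which tumour necrosis factor (TNF) induces arthritis. The labels do not give the genotype or strain of a group, the alleles behind the doxycycline switch, the cell type that carries them, the age and sex of the animals, the interval after withdrawal or the culture passage. Whether each library had its own animal or culture is not stated either, so the p-values reflect the spread between libraries, part of which may be technical. The series asked how synoviocytes in the resolution phase impair endothelial cells.

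Collagen chains are modified while they are still in the endoplasmic reticulum. Prolyl 4-hydroxylase, a tetramer of alpha and beta subunits, converts proline to 4-hydroxyproline, which stabilises the triple helix, and needs iron, oxygen, 2-oxoglutarate and ascorbate. Lysyl hydroxylases convert lysine to hydroxylysine, and Plod2 acts mainly on the telopeptides at the chain ends. Outside the cell, the copper-dependent lysyl oxidases oxidise lysine and hydroxylysine to aldehydes, from which the covalent crosslinks of collagen and elastin form. In the joint these enzymes act on the matrix that the synovial lining lays down.

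Library totals ran from 18120745 to 34971537 counts. Levels are CPM, counts relative to the library total after TMM scaling (a trimmed mean of log ratios). A count of 0 in a library allows up to 0.0858 to 0.166 CPM, reckoned on the library total before TMM scaling. Such limits cover counting error only. On the first principal component (60.7% of the variance over 500 genes) homeostasis libraries 1 and 2 stood at -42.6 and -41.7, and libraries 3 and 4 at -35.7 and -35.5. The 13 fibroblast and synoviocyte markers were all detected in every group, but 9 fell and 2 rose in resolution and 6 fell and 1 rose in inflammation, each against homeostasis. Prg4, the lubricin of the synovial lining, averaged 983 CPM in resolution, 829 CPM in inflammation and 3212 CPM in homeostasis. Vim, the mesenchymal filament protein vimentin, averaged 3405, 3612 and 6394 CPM in the same order, Thy1 60.2, 38.8 and 158 CPM, and Pdpn 745, 729 and 716 CPM. The 13 together ran from 11080.0 to 16814 CPM in resolution, 21915 to 25292 CPM in inflammation and 30536 to 33069 CPM in homeostasis. Collagen chains are among the 13 and weigh heavily in this sum. In resolution against inflammation, 4 of the 13 fell (Col1a1, Col1a2, Col3a1 and Col6a1) and 2 rose. Their median log2 fold change there was 0.032. The 14 macrophage markers together ran from 62.8 to 70.3 CPM in resolution, 638 to 693 CPM in inflammation and 116 to 155 CPM in homeostasis, and none of them was at 0 counts in a group. The 11 chondrocyte markers ran from 59.9 to 91.7, 32.8 to 43.2 and 862 to 1113 CPM in the same order of groups, with Matn1 at 0 counts in resolution. Markers of skeletal muscle (at most 90.4 CPM summed), osteoblasts (86.8), Schwann cells (36.7) and endothelium (17.5) were low in every library. The Y-linked genes Ddx3y, Eif2s3y, Kdm5d and Uty together had 0 counts in the resolution libraries, 3 in the inflammation libraries and 5980 in the homeostasis libraries. Xist, expressed from the inactive X chromosome, averaged 174 CPM in resolution, 110.3 CPM in inflammation and 10.8 CPM in homeostasis. Treatment, the sex-linked difference and any genotype difference behind the name WT therefore coincide in both comparisons with homeostasis. They cannot be told apart there, and the part of the fibroblast, macrophage and chondrocyte markers in the results below was not tested.

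In resolution, P4ha1, Plod1, Plod3, Loxl1 and Loxl4 fell and Lox rose relative to homeostasis. In inflammation, P4ha1, Plod3 and Loxl4 fell and Lox rose relative to homeostasis. Between the doxycycline groups, Plod1 and Loxl2 fell in resolution relative to inflammation. Calls come from edgeR's quasi-likelihood test fitted to all genes and 12 libraries, with an adjusted p under 0.05, and a log2 fold change between the doxycycline groups is that of resolution over inflammation. The count was 6 of 10 in resolution against homeostasis, where 53.3% of all genes tested were called, 27.5% higher and 25.8% lower. It was 4 of 10 in inflammation against homeostasis, beside 37.2% of all genes (19.0% higher and 18.3% lower), and 2 of 10 in resolution against inflammation, beside 16.2% (8.52% higher and 7.64% lower). All 3 shares lie near those of the whole table. With same-numbered libraries paired in the fit to all 12, 1 of the 10 was called between resolution and inflammation, Loxl2. Over all genes that pairing called 1898 between these groups, beside 2431 without it. In a fit to those 8 libraries alone, pairing called 4808 genes and 3 of the 10 (Plod1, Plod3 and Loxl2), beside 3067 genes and 2 of the 10 without it. The libraries of the groups compared did not overlap for 6, 4 and 3 of the 10 in these comparisons, beside 43.5%, 35.4% and 18.9% of all genes. Of all genes, 21.9% lay wholly higher and 21.6% wholly lower in resolution than in homeostasis, 18.1% and 17.3% in inflammation than in homeostasis, and 8.94% and 9.91% in resolution than in inflammation. The median log2 fold change of the 10 was -0.40 in resolution and -0.21 in inflammation, each against homeostasis, where that of all genes was -0.0067 and -0.014. Between resolution and inflammation it was -0.20, beside 0.020 for all genes. In bulk RNA, fewer cells of a type and less RNA per cell cannot be told apart, and the comparisons with homeostasis share its 4 libraries.

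**Figure D1:**
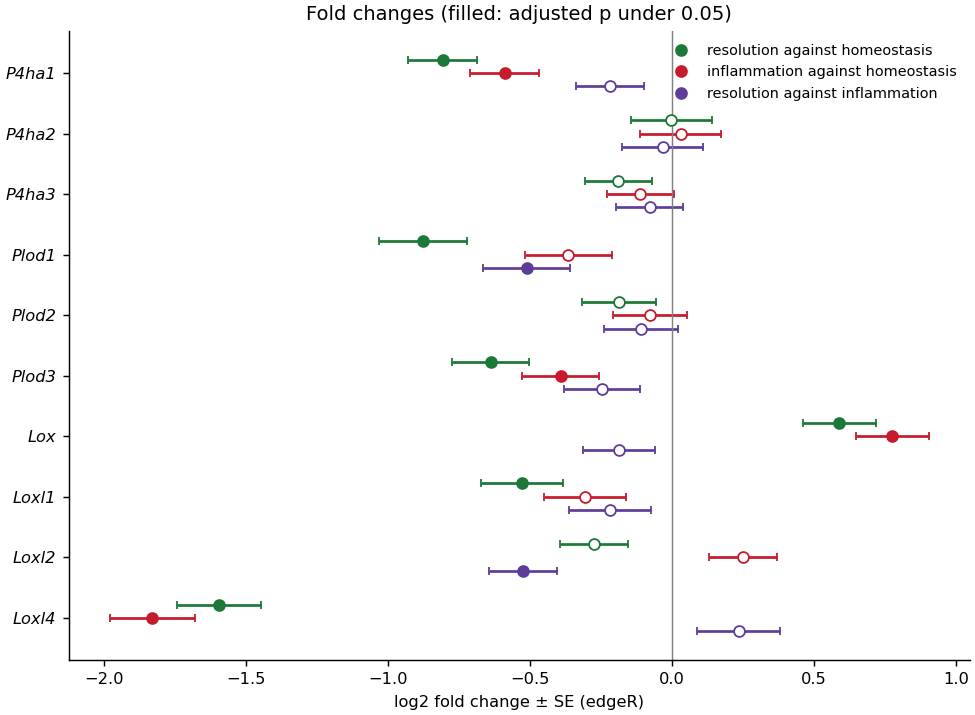
Log2 fold change with its standard error (horizontal axis) of each of the 10 enzymes (rows) in the 3 comparisons, each fitted to 12 libraries with 4 per group. Filled points passed an adjusted p under 0.05. Loxl4 lies far to the left in both comparisons with homeostasis (-1.59 in resolution and -1.83 in inflammation), Lox lies to the right in both (0.59 and 0.78), and P4ha2 lies at 0 within its error throughout.

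Some prolyl and lysyl hydroxylase genes are known targets of hypoxia-inducible factor, whose binding site has the core letters ACGTG or GCGTG. Both 5-letter words were searched on both strands in the promoters of 6 of the 10 genes. Plod2, Lox, Loxl1 and Loxl2 were left out of the search, so it says nothing of Lox, which rose against homeostasis. The promoters searched are those of RefSeq (assembly GRCm38.p6, 250 bases before to 50 after the start site). No 2 matches overlapped in these promoters. The promoters of P4ha2 and Plod3 held 4 matches each, P4ha1 held 3, Plod1 held 2, Loxl4 held 1 and P4ha3 held 0. A match to either word stood in 43.8% of 32851 promoters of the same length, to ACGTG in 19.6% and to GCGTG in 32.4%. Sequences of 4 are shown, those of 3 genes that fell in both comparisons with homeostasis (P4ha1, Plod3 and Loxl4) and of P4ha2, which was called in none: P4ha1 at chr10:59323046-59323345 on the plus strand (gene at chr10:59323296-59373304), P4ha2 at chr11:54100674-54100973 on the plus strand (gene at chr11:54100095-54131665), Plod3 at chr5:136986769-136987068 on the plus strand (gene at chr5:136987019-136996648) and Loxl4 at chr19:42612757-42613056 on the minus strand (gene at chr19:42593982-42612813). All genes are protein coding, and the capitals mark the matches, read in the direction of the gene.
P4ha1: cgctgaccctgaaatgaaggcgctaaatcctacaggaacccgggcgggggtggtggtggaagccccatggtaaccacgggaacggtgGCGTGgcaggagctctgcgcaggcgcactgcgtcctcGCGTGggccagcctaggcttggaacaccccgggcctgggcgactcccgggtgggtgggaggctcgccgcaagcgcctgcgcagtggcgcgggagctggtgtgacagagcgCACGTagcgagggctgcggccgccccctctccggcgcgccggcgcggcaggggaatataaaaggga
P4ha2: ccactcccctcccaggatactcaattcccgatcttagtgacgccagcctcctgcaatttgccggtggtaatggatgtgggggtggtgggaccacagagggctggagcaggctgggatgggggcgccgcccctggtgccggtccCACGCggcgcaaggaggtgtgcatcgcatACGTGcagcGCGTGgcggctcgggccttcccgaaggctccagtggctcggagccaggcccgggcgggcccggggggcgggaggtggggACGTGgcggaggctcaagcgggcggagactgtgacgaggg
Plod3: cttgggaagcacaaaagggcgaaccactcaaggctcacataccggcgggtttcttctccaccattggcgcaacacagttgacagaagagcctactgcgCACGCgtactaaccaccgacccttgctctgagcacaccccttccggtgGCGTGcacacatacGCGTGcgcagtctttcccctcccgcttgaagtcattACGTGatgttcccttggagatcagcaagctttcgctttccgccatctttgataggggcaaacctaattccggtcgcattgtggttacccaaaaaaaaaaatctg
Loxl4: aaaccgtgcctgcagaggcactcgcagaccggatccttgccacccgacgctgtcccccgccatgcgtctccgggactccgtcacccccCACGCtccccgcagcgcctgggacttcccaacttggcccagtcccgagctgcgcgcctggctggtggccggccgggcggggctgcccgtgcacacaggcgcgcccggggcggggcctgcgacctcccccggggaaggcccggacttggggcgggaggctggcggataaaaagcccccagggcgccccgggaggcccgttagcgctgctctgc
P4ha1, P4ha2 and Plod3 carry the word ACGTG near the start site. It stands at -16 on the opposite strand in P4ha1, at -78 and 11 in P4ha2 and at -54 in Plod3. Loxl4 carries none in this window, nor do Plod1 and P4ha3, whose sequences are not shown. A match is a description of the letters, not of binding.

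P4ha1, the widely expressed catalytic alpha subunit of prolyl 4-hydroxylase, fell in both doxycycline groups relative to homeostasis. It had 557, 569, 486 and 550.2 CPM in resolution libraries 1 to 4, 611, 587, 586 and 733 CPM in inflammation and 957, 1063, 901 and 865 CPM in homeostasis. Every library of the doxycycline groups lay below every homeostasis library, and every resolution library lay below every inflammation library by a small gap. The log2 fold change was -0.81 ± 0.12 (adjusted p = 1.77e-05) in resolution and -0.59 ± 0.12 (adjusted p = 0.000818) in inflammation, each against homeostasis. Between resolution and inflammation it was -0.22 ± 0.12 (adjusted p = 0.218), which did not pass.

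P4ha2, the alpha subunit that is prominent in cartilage and bone cells, was the most abundant of the 3 per length and was called in no comparison. It had 1045, 1313, 905 and 967 CPM in resolution, 1129.7, 1067, 1058 and 1072 CPM in inflammation and 799, 1110.0, 1156 and 1171 CPM in homeostasis. Resolution library 2 was the highest of all 12 and homeostasis library 1 the lowest, and all groups overlapped. Against homeostasis, its log2 fold change was -0.0025 ± 0.14 (adjusted p = 0.99) in resolution and 0.030 ± 0.14 (adjusted p = 0.889) in inflammation. Its difference between resolution and inflammation was -0.033 ± 0.14 (adjusted p = 0.892).

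P4ha3, the least abundant alpha subunit, ran from 82.6 to 94.6 CPM in resolution, 83.3 to 98.9 CPM in inflammation and 92.6 to 114 CPM in homeostasis. Its log2 fold changes were -0.19 ± 0.12 (adjusted p = 0.184) for resolution and -0.11 ± 0.12 (adjusted p = 0.488) for inflammation against homeostasis, and -0.078 ± 0.12 (adjusted p = 0.671) for resolution against inflammation. P4hb, the beta subunit, which is protein disulfide isomerase and also serves other client proteins, averaged 1681 ± 227 CPM in resolution, 2436 ± 76.8 CPM in inflammation and 3701 ± 433 CPM in homeostasis (SD, n = 4 each). It fell in all 3 comparisons, by a log2 fold change of -1.14 ± 0.13 (adjusted p = 5.77e-07) in resolution and -0.60 ± 0.13 (adjusted p = 0.00102) in inflammation against homeostasis, and -0.54 ± 0.13 (adjusted p = 0.00731) in resolution against inflammation. The summed alpha subunits per unit of P4hb, both per kilobase of transcript, were 0.879 ± 0.0341 in resolution, 0.644 ± 0.0386 in inflammation and 0.483 ± 0.0246 in homeostasis (SD, n = 4 each), with no overlap between the groups. The ratio was highest in resolution and lowest in homeostasis.

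**Figure D2:**
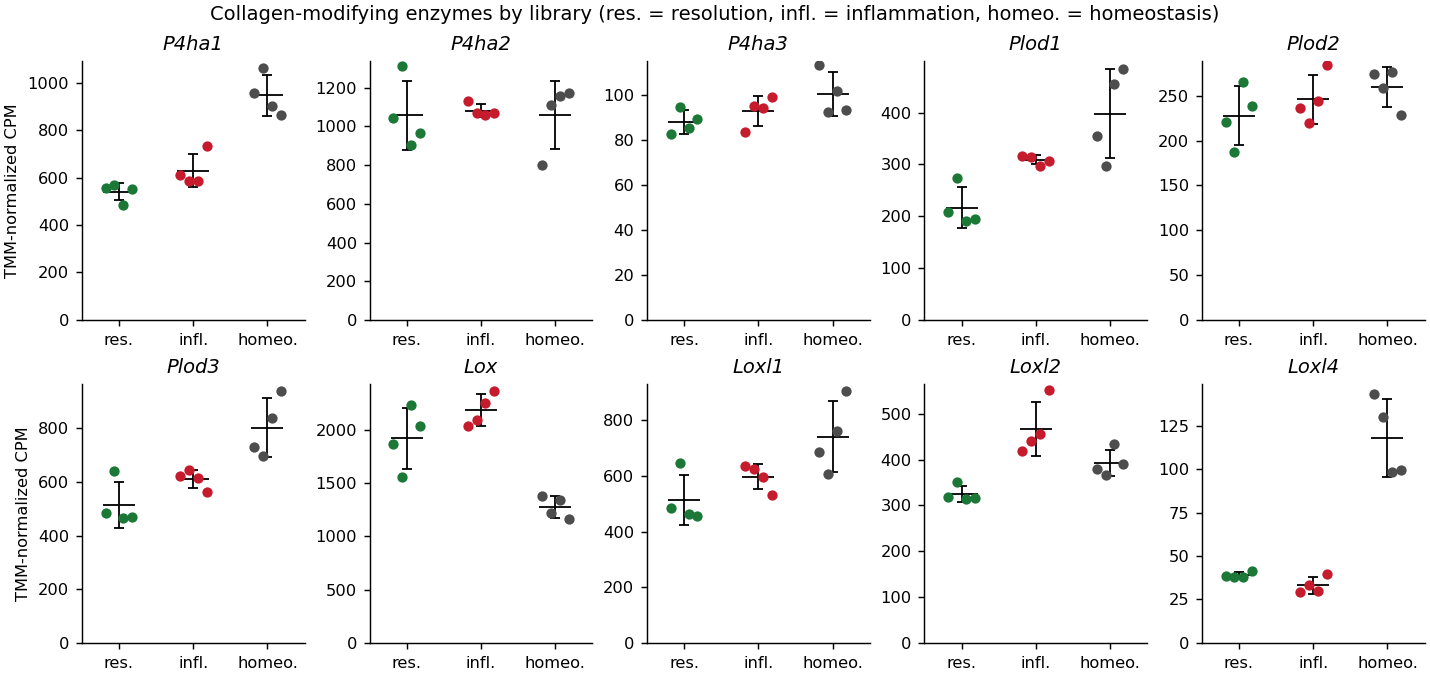
Level in CPM (vertical axis) of each of the 10 enzymes in every library, with resolution, inflammation and homeostasis from left to right. Each point is 1 library and each horizontal mark shows the mean of 4 with its SD. Loxl4 is at 37.9 to 41.6 CPM in resolution and 29.5 to 39.8 CPM in inflammation, below the 98.6 to 143 CPM of homeostasis, and all 8 Lox libraries of the doxycycline groups lie above those of homeostasis.

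Plod1, the lysyl hydroxylase of helical lysines in collagen types such as type I, fell in resolution relative to both other groups. It had 208, 275, 189.9 and 194 CPM in resolution, 317, 314, 298 and 307 CPM in inflammation and 356, 298, 455 and 483 CPM in homeostasis. All 4 resolution libraries were below all 8 others, while inflammation overlapped homeostasis through homeostasis library 2. The log2 fold change was -0.88 ± 0.15 (adjusted p = 9.56e-05) in resolution against homeostasis and -0.51 ± 0.15 (adjusted p = 0.0292) in resolution against inflammation. In inflammation against homeostasis it was -0.36 ± 0.15 (adjusted p = 0.0683), which did not pass. That comparison passed in 3 of 21 alternatives (adjusted p from 0.00524 to 0.738): without homeostasis library 2 (-0.46, adjusted p = 0.0187), without resolution library 2 (-0.37, adjusted p = 0.0381) and with homeostasis libraries 3 and 4 alone (-0.58, adjusted p = 0.00524). The call between resolution and inflammation was lost with same-numbered libraries paired (log2 fold change -0.51, adjusted p = 0.0603) and without any 1 of inflammation libraries 1, 2 and 3 or resolution libraries 1, 3 and 4 (adjusted p up to 0.0921). Over its 22 alternatives the adjusted p ran from 0.000412 to 0.0921.

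Plod3, which also transfers glucose onto hydroxylysine-linked galactose, was the most abundant lysyl hydroxylase per length and fell in both doxycycline groups relative to homeostasis. It had 485, 641, 465 and 467 CPM in resolution, 622, 643, 613 and 562 CPM in inflammation and 729.6, 697, 839 and 938 CPM in homeostasis. Both doxycycline groups lay below homeostasis in every library, and resolution library 2 stood far above the other 3 of its group and inside the range of inflammation. Plod3 changed by a log2 fold change of -0.64 ± 0.14 (adjusted p = 0.00057) in resolution and -0.39 ± 0.13 (adjusted p = 0.0277) in inflammation, each against homeostasis, and -0.25 ± 0.13 (adjusted p = 0.212) between them. The call in inflammation was lost without any 1 of inflammation libraries 1 to 4 or homeostasis libraries 3 and 4 (adjusted p up to 0.105). It was also lost with upper-quartile factors (adjusted p = 0.0876) and with homeostasis libraries 1 and 2 alone (adjusted p = 0.271). It held in 13 of 21 alternatives, with adjusted p from 0.00999 to 0.271. Without resolution library 2, the difference between resolution and inflammation passed (log2 fold change -0.37, adjusted p = 0.0321, against 0.0321 to 0.991 over 22 alternatives). Plod3 shares 529 exon bases with Znhit1 on the opposite strand, which had 13237 counts over the 12 libraries, and no source used here states whether counting used strand.

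Plod2, the telopeptide lysyl hydroxylase associated with fibrotic crosslinks, was called in no comparison. It had 221, 187, 266 and 239 CPM in resolution, 236, 219.8, 244 and 284 CPM in inflammation and 274, 259, 277 and 229 CPM in homeostasis, and all groups overlapped. Resolution library 2 was the lowest of the 12 for Plod2, whereas it was the highest of its group for Plod1 and Plod3. Log2 fold changes of Plod2 were -0.19 ± 0.13 (adjusted p = 0.241) in resolution and -0.077 ± 0.13 (adjusted p = 0.679) in inflammation, each against homeostasis, and -0.11 ± 0.13 (adjusted p = 0.586) between them. The deposited Plod2 counts were not whole in any of the 12 libraries, so reads shared with another annotated feature could enter its level.

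Lox, the founding lysyl oxidase, rose in both doxycycline groups relative to homeostasis. It had 1867, 1557, 2231 and 2032 CPM in resolution, 2035, 2091, 2255 and 2368 CPM in inflammation and 1381, 1219, 1346 and 1166 CPM in homeostasis. Every library of the doxycycline groups was above every homeostasis library, and resolution library 2 was the lowest of those 8. Relative to homeostasis, the log2 fold change of Lox was 0.59 ± 0.13 (adjusted p = 0.000702) in resolution and 0.78 ± 0.13 (adjusted p = 0.000101) in inflammation. Between resolution and inflammation it was -0.19 ± 0.13 (adjusted p = 0.317), which did not pass. After an adjustment for GC content and transcript length the rise in resolution did not pass (log2 fold change 0.16, adjusted p = 0.0974), and the adjusted p ran from 2.09e-05 to 0.0974 over 21 alternatives.

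Loxl4, a lysyl oxidase with scavenger receptor domains, showed the biggest log2 fold changes of the 10 against homeostasis. It had 38.5, 38.0, 37.9 and 41.6 CPM in resolution, 29.5, 33.4, 29.8 and 39.8 CPM in inflammation and 143, 129.9, 98.6 and 99.5 CPM in homeostasis. Both doxycycline groups stayed below the lowest homeostasis library, homeostasis libraries 1 and 2 were above 3 and 4, and resolution overlapped inflammation through inflammation library 4. Its log2 fold change was -1.59 ± 0.15 (adjusted p = 4.45e-08) in resolution and -1.83 ± 0.15 (adjusted p = 1.75e-08) in inflammation, each against homeostasis, and 0.24 ± 0.15 (adjusted p = 0.272) between them. With homeostasis libraries 3 and 4 as the sole homeostasis libraries the first was -1.33 (adjusted p = 5.41e-07), and the second was -1.55 (adjusted p = 1.88e-07). Col2a1, the chondrocyte collagen, was 2.73 CPM in resolution, 2.62 CPM in inflammation and 828 CPM in homeostasis, the same direction as Loxl4, and its part in the Loxl4 difference was not tested.

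Loxl2, a lysyl oxidase that acts on basement membrane collagen IV, fell in resolution relative to inflammation. It had 317, 350.2, 314 and 316 CPM in resolution, 419, 441, 455 and 552 CPM in inflammation and 379, 367, 433 and 391 CPM in homeostasis. Resolution lay below every library of both other groups, and inflammation overlapped homeostasis only through homeostasis library 3. The log2 fold change was -0.52 ± 0.12 (adjusted p = 0.00562) in resolution against inflammation. Against homeostasis it was -0.27 ± 0.12 (adjusted p = 0.0599) in resolution and 0.25 ± 0.12 (adjusted p = 0.108) in inflammation, and neither passed. The difference between resolution and homeostasis passed with DESeq2 (log2 fold change -0.27, adjusted p = 0.0431), and in 4 of 21 alternatives in all, with adjusted p from 0.0352 to 0.879. The difference between inflammation and homeostasis passed in 2 of 21 alternatives (adjusted p from 0.000295 to 0.292), with upper-quartile factors (0.32, adjusted p = 0.0493) and with the GC and length adjustment (0.45, adjusted p = 0.000295). Loxl2 shares 301 exon bases with the antisense gene Gm27177 (495 counts in all).

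Loxl1, which is needed for the deposition of elastic fibres, fell in resolution relative to homeostasis. It had 486, 646, 464 and 457 CPM in resolution, 637, 623, 598 and 533 CPM in inflammation and 687, 605, 762 and 905 CPM in homeostasis. Resolution library 2 stood apart from the other 3 of its group, above homeostasis library 2, so the groups overlapped. The log2 fold change was -0.53 ± 0.14 (adjusted p = 0.00457) in resolution and -0.31 ± 0.14 (adjusted p = 0.1) in inflammation, each against homeostasis, and -0.22 ± 0.14 (adjusted p = 0.299) between them. The call was lost with homeostasis libraries 1 and 2 as the sole homeostasis libraries (log2 fold change -0.34, adjusted p = 0.0786), and after the GC and length adjustment (-0.14, adjusted p = 0.104). Its adjusted p ran from 0.000468 to 0.104 over 21 alternatives. Loxl3, the remaining lysyl oxidase, averaged 411 ± 67.4 CPM in resolution, 564 ± 24.1 CPM in inflammation and 568 ± 45.7 CPM in homeostasis (SD, n = 4 each). It fell in resolution relative to homeostasis, with a log2 fold change of -0.47 ± 0.13 (adjusted p = 0.00421), and relative to inflammation, with -0.46 ± 0.13 (adjusted p = 0.0191), and it shares 535 exon bases with Htra2 on the opposite strand. With the GC and length adjustment the first was -0.11 (adjusted p = 0.3, range 0.000246 to 0.3 over 21 alternatives) and did not pass. The second was lost without inflammation library 2 or resolution library 1, 3 or 4 (adjusted p from 0.0515 to 0.0738, range 0.00103 to 0.0738 over 22 alternatives).

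Resolution library 2 departed from the other resolution libraries across the set. It was above the group mean for 7 of the 10 and below it for 3, and its median departure was 0.28 on the log2 scale, beside 0.041 to 0.14 for the other 3. It was the highest resolution library for P4ha1, P4ha2, P4ha3, Plod1, Plod3, Loxl1 and Loxl2 and the lowest for Plod2 and Lox. Leaving it out changed no call of the 10 in resolution against homeostasis other than Loxl2 (log2 fold change -0.32, adjusted p = 0.0352), which then passed.

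Within each family, levels per kilobase of the longest annotated transcript gave each member's share. P4ha1 made up 26.1 ± 2.05% of the alpha subunits in resolution, 28.4 ± 2.20% in inflammation and 37.8 ± 4.54% in homeostasis (SD, n = 4 each). P4ha2 made up 66.7 ± 2.57%, 64.6 ± 2.35% and 55.4 ± 5.51% in the same order of groups. Of the 2 main alpha subunits, P4ha2 thus took more of the total in the doxycycline groups, and the P4ha1 shares of every doxycycline library lay below those of every homeostasis library. The alpha subunits together were 516 ± 67.2 CPM per kilobase in resolution, 548 ± 19.9 in inflammation and 622 ± 52.6 in homeostasis.

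Lox made up 55.2 ± 6.97% of the 5 lysyl oxidases in resolution, 52.6 ± 2.22% in inflammation and 36.6 ± 3.05% in homeostasis. In single libraries the share was 55.7, 45.3, 60.9 and 59.0% in resolution, 50.5, 50.9, 53.8 and 55.1% in inflammation and 38.4, 38.4, 37.5 and 32.1% in homeostasis. The doxycycline libraries all had a higher Lox share than the homeostasis libraries. Loxl1 made up 21.3 ± 3.98% in resolution, 20.7 ± 2.13% in inflammation and 30.3 ± 3.94% in homeostasis, and Loxl4 made up 1.43 ± 0.0913%, 1.01 ± 0.123% and 4.30 ± 0.951%. The family sum was 733 ± 27.9 CPM per kilobase in resolution, 877 ± 24.5 in inflammation and 738 ± 45.8 in homeostasis, so the mean of resolution lay within the spread of homeostasis while the makeup differed. Among lysyl hydroxylases, Plod2 made up 23.2 ± 4.98% in resolution, 20.5 ± 2.52% in inflammation and 17.5 ± 2.98% in homeostasis, and their sum was 272 ± 27.9, 329 ± 4.27 and 412 ± 51.1 CPM per kilobase.

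**Figure D3:**
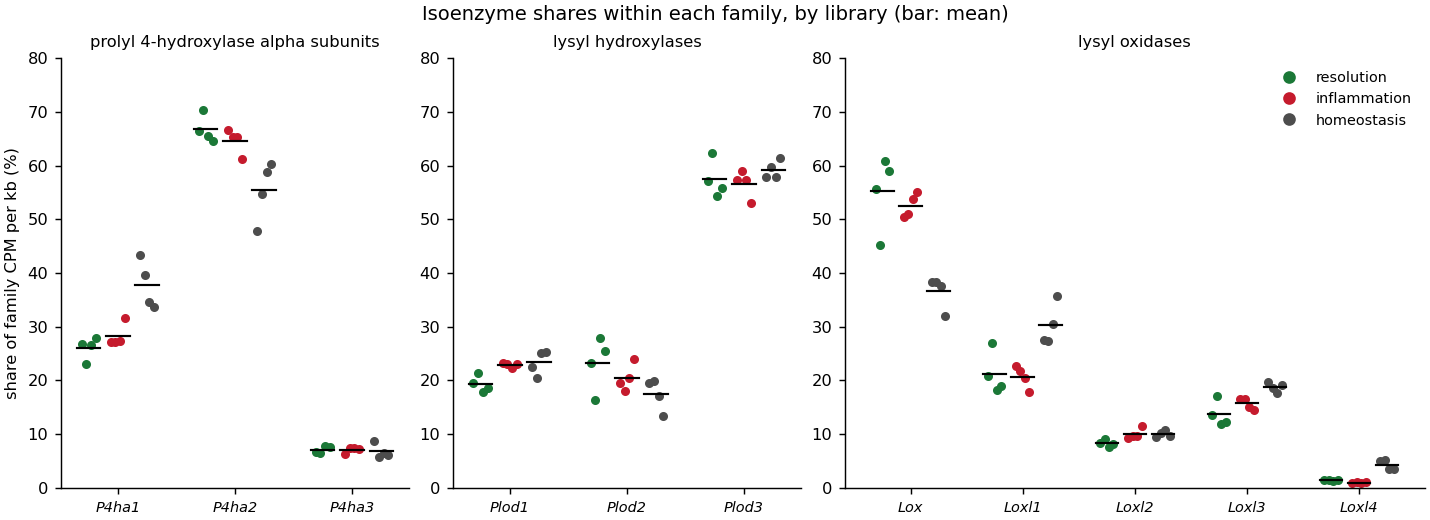
Share (percent, vertical axis) of each member in the summed CPM per kilobase of its family, with 1 point per library, a bar at the mean of 4, and resolution, inflammation and homeostasis from left to right. On average Lox takes 55.2% of the lysyl oxidases in resolution and 52.6% in inflammation, above the 36.6% of homeostasis, and P4ha2 takes 66.7% and 64.6% of the alpha subunits, above 55.4%.

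The enzymes were set against the chains of type I collagen as a shared divisor. Col1a1 had 1922, 4691, 3251 and 2609 CPM in resolution, 8447, 7904, 7597 and 8651 CPM in inflammation and 10289, 8116, 10048 and 9787 CPM in homeostasis. Col1a2 had 1870.4, 3525, 2578 and 2178 CPM in resolution, 5582, 5334, 5502 and 6133 CPM in inflammation and 7306, 6429, 7339.9 and 7265 CPM in homeostasis. Resolution lay below both other groups in every library, with library 2 the highest of its group. The log2 fold change of Col1a1 was -1.62 ± 0.19 (adjusted p = 1.17e-06) in resolution against homeostasis and -1.39 ± 0.19 (adjusted p = 4.39e-05) in resolution against inflammation, and -0.23 ± 0.19 (adjusted p = 0.354) in inflammation against homeostasis, which did not pass.

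Per 1000 reads of the 2 type I chains, Lox had 492, 189.5, 383 and 425 reads in resolution libraries 1 to 4, 145, 158, 172 and 160.2 in inflammation and 78.5, 83.8, 77.4 and 68.4 in homeostasis. The groups did not overlap, and resolution library 2 was the lowest of its group. P4ha2 had 275, 159.8, 155 and 202 reads per 1000 in resolution, 80.5, 80.6, 80.8 and 72.5 in inflammation and 45.4, 76.3, 66.5 and 68.7 in homeostasis. Resolution was again above both others in every library, and inflammation overlapped homeostasis. P4ha1 had 104 ± 34.6 in resolution, 45.5 ± 2.73 in inflammation and 57.5 ± 10.5 in homeostasis (SD, n = 4 each). In inflammation its ratio lay below homeostasis in every library. Plod2 had 44.1 ± 15.1 in resolution, 17.8 ± 1.30 in inflammation and 15.7 ± 1.80 in homeostasis. Loxl4 had 7.49 ± 2.43 in resolution, 2.40 ± 0.259 in inflammation and 7.14 ± 1.64 in homeostasis, with its lowest values in inflammation. Resolution lay above inflammation in every library for all 10 enzymes, and above homeostasis for 8 of 10, or 7 of 10 with all fibrillar collagens as the divisor. Inflammation lay above homeostasis for 2 and below it for 2. These ratios share the collagen divisor, which itself fell in resolution, and are given without a test. Before this division, 0 of the 10 were called higher in resolution than in inflammation. The share of all genes that would lie above with this divisor was not computed, so the counts do not set the enzymes apart.

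**Figure D4:**
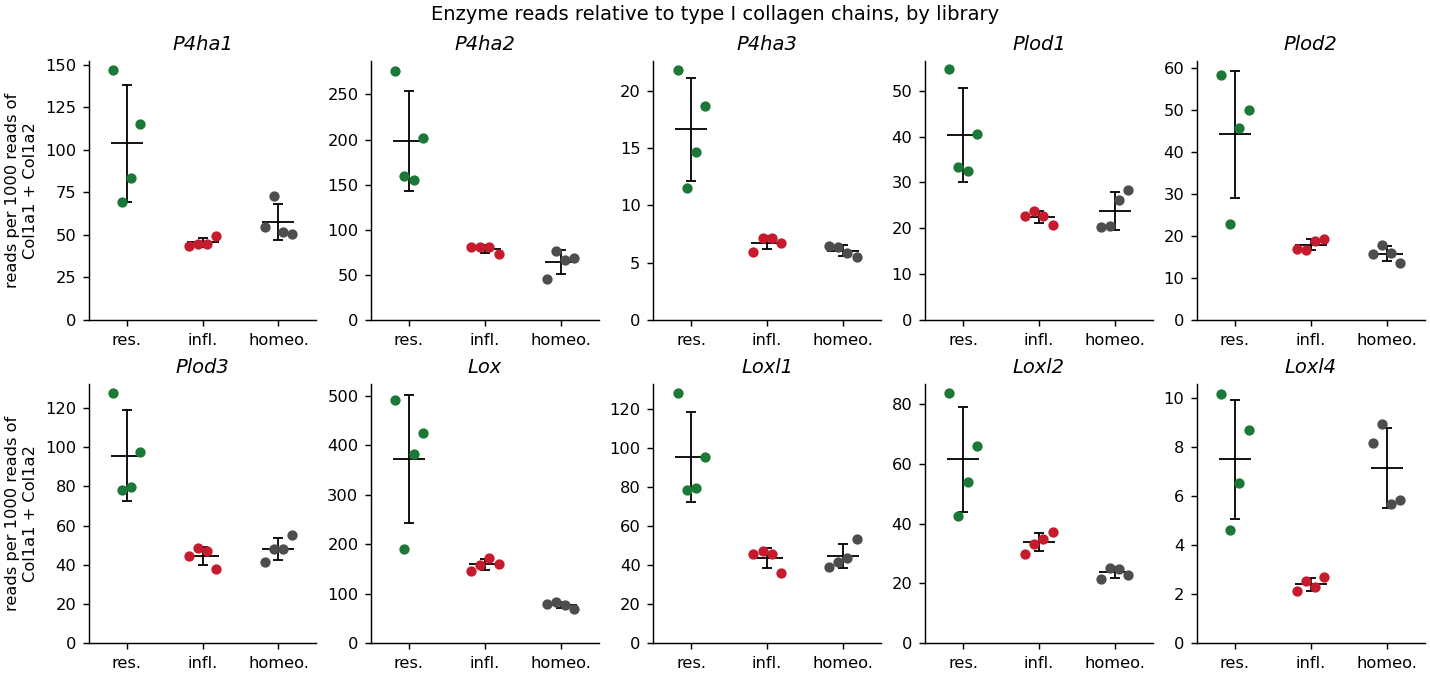
Reads of each enzyme per 1000 reads of Col1a1 and Col1a2 together (vertical axis) in every library, with resolution, inflammation and homeostasis from left to right. Each point is 1 library and the marks show the mean of 4 with its SD. Resolution lies above inflammation for all 10 enzymes, and Lox has a mean of 372 in resolution, 159 in inflammation and 77.0 in homeostasis. The collagen divisor itself fell in resolution.

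Of 13 tested genes whose products work with these enzymes in the endoplasmic reticulum, 7 fell and 2 rose in resolution against homeostasis, 5 fell and 1 rose in inflammation against homeostasis, and 4 fell and 1 rose in resolution against inflammation. Their median log2 fold changes were -0.36, -0.12 and -0.18. Those of all genes tested were -0.0067, -0.014 and 0.020, and 53.3%, 37.2% and 16.2% of all genes were called in the same order. These are the values to set beside each list below. Serpinh1, the collagen chaperone HSP47, averaged 883 ± 149 CPM in resolution and 2232 ± 148 CPM in homeostasis (log2 fold change -1.34 ± 0.14, adjusted p = 1.89e-07). Fkbp10, a prolyl isomerase that assists lysyl hydroxylation of telopeptides, averaged 348 ± 69.5 CPM in resolution and 788 ± 122 CPM in homeostasis (log2 fold change -1.18 ± 0.15, adjusted p = 2.06e-06). P3h1, the prolyl 3-hydroxylase, averaged 196 ± 39.6 CPM in resolution and 425 ± 64.8 CPM in homeostasis (log2 fold change -1.11 ± 0.15, adjusted p = 3.49e-06). All 3 also fell in resolution relative to inflammation, with log2 fold changes of -0.70 ± 0.14 (adjusted p = 0.00157), -0.84 ± 0.15 (adjusted p = 0.000566) and -0.69 ± 0.14 (adjusted p = 0.00273). In inflammation, Serpinh1 (log2 fold change -0.64 ± 0.14, adjusted p = 0.00108) and Colgalt1, which adds galactose to hydroxylysine (log2 fold change -0.39 ± 0.12, adjusted p = 0.0158), fell relative to homeostasis, and Tmem38b, an endoplasmic reticulum cation channel, rose (log2 fold change 0.44 ± 0.14, adjusted p = 0.0181).

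Of 7 tested genes of procollagen processing, 4 fell in resolution against homeostasis, 1 fell in inflammation against homeostasis, and 1 fell in resolution against inflammation, where the paired fit to those 8 libraries called 3. Pcolce2, an enhancer of procollagen C-proteinase, averaged 22.8 ± 2.45 CPM in resolution and 50.3 ± 5.04 CPM in homeostasis (log2 fold change -1.14 ± 0.14, adjusted p = 1.56e-06) and had a log2 fold change of -1.20 ± 0.14 (adjusted p = 1.99e-06) in inflammation against homeostasis. Adamts14, a procollagen N-proteinase, averaged 5.18 ± 2.33 CPM in resolution and 21.6 ± 6.35 CPM in homeostasis (log2 fold change -2.06 ± 0.26, adjusted p = 2.08e-06), and its log2 fold change in resolution against inflammation was -1.51 ± 0.26 (adjusted p = 0.000407). Pcolce (log2 fold change -0.55 ± 0.15, adjusted p = 0.00403) and Adamts2 (log2 fold change -0.42 ± 0.13, adjusted p = 0.0135) were the other 2 that fell in resolution against homeostasis. Median log2 fold changes of the list were -0.55 in resolution and -0.26 in inflammation, each against homeostasis, and -0.22 between them.

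Of the 11 fibrillar collagen chains, 8 fell and 2 rose in resolution against homeostasis, 2 fell and 1 rose in inflammation against homeostasis, and 7 fell in resolution against inflammation. Their median log2 fold changes were -1.24, -0.11 and -0.79. Col11a1, which nucleates heterotypic fibrils, averaged 58.4 ± 14.8 CPM in resolution and 182 ± 36.3 CPM in homeostasis (log2 fold change -1.64 ± 0.19, adjusted p = 7.54e-07). Col3a1 fell in resolution against inflammation by a log2 fold change of -1.13 ± 0.16 (adjusted p = 4.75e-05). In inflammation against homeostasis, Col5a3 (log2 fold change -1.26 ± 0.24, adjusted p = 0.000473) and Col2a1 (log2 fold change -8.30 ± 0.22, adjusted p = 9.75e-16) fell, and Col24a1 (log2 fold change 1.76 ± 0.33, adjusted p = 0.000393) rose.

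Of 12 genes for other crosslinks or for proteins that bind lysyl oxidases and fibrils, 6 fell and 1 rose in resolution against homeostasis, 3 fell and 3 rose in inflammation against homeostasis, and 6 fell in resolution against inflammation. Their median log2 fold changes were -0.50, 0.015 and -0.58. Dcn, the fibril-binding proteoglycan decorin, was higher in both doxycycline groups and averaged 897 ± 144 CPM in resolution and 161 ± 66.1 CPM in homeostasis (log2 fold change 2.48 ± 0.23, adjusted p = 3.72e-08). In inflammation against homeostasis its log2 fold change was 2.60 ± 0.23 (adjusted p = 4.77e-08). Tgm2, a transglutaminase that forms a different covalent crosslink, averaged 160.3 ± 22.4 CPM in inflammation and 62.4 ± 16.2 CPM in homeostasis (log2 fold change 1.36 ± 0.20, adjusted p = 2.37e-05), and its log2 fold change in resolution against inflammation was -0.95 ± 0.19 (adjusted p = 0.00241). Fmod, the small proteoglycan fibromodulin, which binds Lox, averaged 467 ± 29.7 CPM in inflammation and 259 ± 30.0 CPM in homeostasis (log2 fold change 0.85 ± 0.14, adjusted p = 7.07e-05), and in resolution against inflammation its log2 fold change was -0.83 ± 0.14 (adjusted p = 0.000257). Lum, the proteoglycan lumican, fell in resolution against homeostasis (log2 fold change -1.25 ± 0.17, adjusted p = 7.52e-06) and against inflammation (log2 fold change -0.78 ± 0.17, adjusted p = 0.00471). Fbln5, an elastic fibre adaptor that binds Loxl1, averaged 249 ± 6.25 CPM in resolution and 438 ± 18.4 CPM in homeostasis (log2 fold change -0.81 ± 0.12, adjusted p = 1.03e-05). Tgm1, another transglutaminase, averaged 0.281 ± 0.114 CPM in resolution and 1.09 ± 0.193 CPM in inflammation (log2 fold change -1.93 ± 0.44, adjusted p = 0.00507). Eln, which encodes elastin, was near the limit of a 0 count in both doxycycline groups and averaged 0.0258 CPM in resolution, 0.140 CPM in inflammation and 2.63 CPM in homeostasis.

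Of 6 tested genes that supply ascorbate, copper, iron or zinc, 2 rose and 1 fell in resolution against homeostasis, 1 rose in inflammation against homeostasis, and 0 were called by edgeR between resolution and inflammation (3 at an unadjusted p under 0.05, 0 by DESeq2, 4 by edgeR in the paired fit to those 8 libraries). Median log2 fold changes were 0.11 in resolution and 0.16 in inflammation, each against homeostasis, and -0.055 between them. Atp7a, which loads copper onto secreted enzymes including lysyl oxidases, rose in both doxycycline groups. It averaged 35.6 ± 10.7 CPM in resolution and 12.9 ± 3.37 CPM in homeostasis (log2 fold change 1.47 ± 0.23, adjusted p = 2.19e-05), and in inflammation its log2 fold change was 0.89 ± 0.22 (adjusted p = 0.00411). Slc23a2, an ascorbate transporter, rose in resolution (log2 fold change 0.57 ± 0.21, adjusted p = 0.0277), and Slc39a13, a zinc transporter of the secretory pathway, fell (log2 fold change -0.50 ± 0.15, adjusted p = 0.00859). Of 16 genes that respond to hypoxia, 9 fell and 1 rose in resolution against homeostasis, 6 fell and 2 rose in inflammation against homeostasis, and 0 were called by edgeR between resolution and inflammation (4 at an unadjusted p under 0.05, 0 by DESeq2, 6 by edgeR in that paired fit), with medians of -0.42, -0.29 and -0.14 for these 3 comparisons. Hif1a, the oxygen-regulated subunit of hypoxia-inducible factor, averaged 751 ± 149 CPM in resolution and 263 ± 32.7 CPM in homeostasis (log2 fold change 1.51 ± 0.15, adjusted p = 1.65e-07) and rose by 1.13 ± 0.15 (adjusted p = 1.20e-05) on the log2 scale in inflammation. Ndrg1 (log2 fold change -1.95 ± 0.18, adjusted p = 5.44e-08), Egln1, an oxygen-sensing prolyl hydroxylase (log2 fold change -1.13 ± 0.16, adjusted p = 1.18e-05), and Ldha, lactate dehydrogenase (log2 fold change -0.80 ± 0.16, adjusted p = 0.000338), fell in resolution. In inflammation, Ndrg1 (log2 fold change -1.64 ± 0.18, adjusted p = 9.84e-07), Egln1 (log2 fold change -0.97 ± 0.16, adjusted p = 0.000122) and Pdk1 (log2 fold change -0.86 ± 0.17, adjusted p = 0.000677) fell.

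For the member of each family whose group means spanned the most, the genes most alike in log2 CPM over the 12 libraries were sought among 10453 genes with a mean of at least 5 CPM. Those of P4ha1 included Hspa5 (r = 0.978) and Sec31a (r = 0.977). Hspa5, the endoplasmic reticulum chaperone BiP, averaged 1133 CPM in resolution, 1269 CPM in inflammation and 2249 CPM in homeostasis, and Sec31a is a coat component of vesicles that leave the endoplasmic reticulum. Those of Plod1 were C1qtnf6 (r = 0.985), Gadd45b (r = 0.985) and Mesdc1 (r = 0.984), and those of Loxl4 were Coch (r = 0.984), Aldh1l2 (r = 0.982) and Itih2 (r = 0.979). Coch averaged 8.34 CPM in resolution, 8.14 CPM in inflammation and 79.7 CPM in homeostasis. These Pearson correlations run over libraries that share 3 groups and are given without a p.

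The GC content of the longest transcripts ran from 43.0% for Plod2 and 43.9% for Lox to 61.0% for Loxl1. When a trend in GC content and length was removed from each library over the 14144 genes with annotation, 6, 7 and 5 of the 10 were called in resolution against homeostasis, inflammation against homeostasis and resolution against inflammation, and 4, 4 and 2 of them were called without the adjustment too. P4ha1 and Loxl4 kept their calls against homeostasis. Plod3 kept its calls at smaller log2 fold changes, -0.23 instead of -0.64 in resolution and -0.23 instead of -0.39 in inflammation, each against homeostasis, and was 0.0020 between resolution and inflammation. Plod1 in resolution against homeostasis was -0.52 instead of -0.88 and still called. Plod1 and Loxl2 kept their calls between resolution and inflammation, and P4ha1 gained one there (-0.36, adjusted p = 0.0158, range 0.0158 to 0.417 over 22 alternatives). Plod2 was then lower in resolution against homeostasis (-0.64, adjusted p = 1.43e-05, range over 21 alternatives 1.43e-05 to 0.496) and against inflammation (-0.33, adjusted p = 0.0169, range over 22 alternatives 0.0169 to 0.886). Plod2 was also lower in inflammation against homeostasis (-0.31, adjusted p = 0.0110, range over 21 alternatives 0.0110 to 0.981). P4ha2 was then higher in resolution (0.36, adjusted p = 0.0037, range 0.0037 to 0.993) and in inflammation (0.25, adjusted p = 0.0381, range 0.0381 to 1) against homeostasis. Lox stayed higher in inflammation (0.60, adjusted p = 1.22e-05, range 2.69e-08 to 0.000944) and was lower in resolution than in inflammation (-0.44, adjusted p = 0.000829, range 0.000829 to 0.54).

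**Figure D5:**
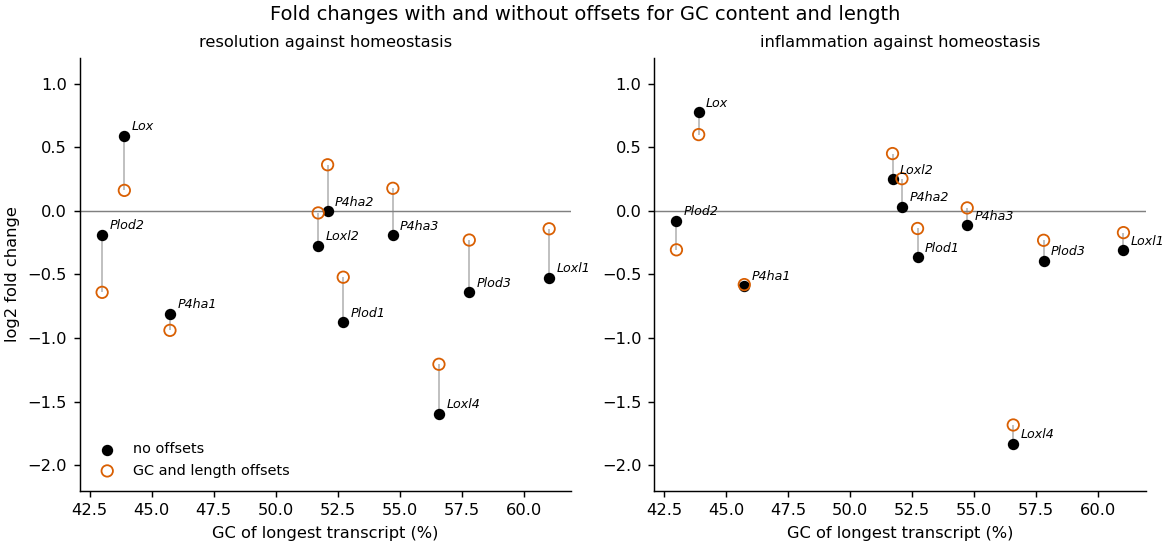
Log2 fold change (vertical axis) of each of the 10 enzymes against the GC content of its longest transcript in percent (horizontal axis), in a panel for each comparison with homeostasis. Filled points are without and open points with offsets for GC content and length, joined by a line. In resolution against homeostasis, Lox moves down to 0.16, Plod2 down to -0.64 and P4ha2 up to 0.36.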

How the data were processed

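Poly(A) RNA of 12 libraries of cultured synoviocytes was sequenced in paired reads on a NovaSeq instrument, per the labels' protocols. The authors deposited 1 table of estimated counts per gene symbol (expected counts, not normalized). The submitters' processing notes name the build GRCm38.p3, while the aligner, the counting tool, the annotation release and the strand setting were not stated in what was read. Of the deposited values, 1.43% were not whole, as where reads are shared between genes. The table had 36930 entries, of which 13 had no value and 42 repeats of 34 symbols were summed, leaving 36875 symbols, and counts were rounded.

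Groups and replicate numbers come from the titles. No pair of libraries within a group agreed within sampling noise (reduced chi-square 10.2 to 113.8). Genes were filtered with edgeR's default, leaving 15049, scaled with TMM and tested with edgeR 4.0.16 (quasi-likelihood F test, robust, group as the only term, all 12 libraries) in R 4.3.3, with Benjamini-Hochberg adjustment over all genes tested, which every adjusted p refers to. The biological coefficient of variation was 18.6%. The script recovered known changes in simulated counts that had the same spread for all genes. Changes as small as most of those called for the enzymes were not simulated. Levels are TMM-scaled CPM, and ± is the SD of 4 libraries or the standard error of a log2 fold change. Lengths and GC content are those of the longest GENCODE M21 transcript (GRCm38). Alternatives were DESeq2 1.42.0, other scalings, no filter, fits to 2 groups, a replicate block, leaving out each library, subsets of homeostasis, offsets for GC content and length, CPM without TMM and a wider collagen divisor.

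The paired fit was decided from the data: over genes, same-numbered libraries of resolution and inflammation deviated together from their group means (correlations 0.14, 0.13, 0.21 and 0.14), those of inflammation and homeostasis did not (-0.21 to 0.080), nor did those of resolution and homeostasis (-0.23 to -0.0028). Differently numbered libraries of resolution and inflammation ranged from -0.25 to 0.20, and resolution 2 with homeostasis 4 reached 0.35. The labels do not say what the number marks. The fit to the 8 libraries of resolution and inflammation with a block was added after the data were seen.

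The 10 genes and all lists were chosen with earlier results of these data known. The lists hold 155 symbols, 152 found as written and 3 under another symbol. The naming rule took every one of the 10 genes, in each comparison up to 4 genes of each of the 6 pathway lists by adjusted p, smallest first (marker lists are given by counts and sums, and Prg4, Vim, Thy1, Pdpn and the sex-linked genes were singled out after their values were seen), Col1a1, Col1a2, Loxl3, P4hb, and the 3 genes most correlated with the widest-ranging gene of each family. Of the genes this rule names, 1 is not reported here.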

Additional observations from a re-analysis of the deposited data

Results flagged for a closer look

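Of 30 groups of 4 libraries (10 enzymes in 3 groups), 6 had a library whose gap to its nearest neighbour exceeded Dixon's 95% critical value for its share of the group's range. Chance gives about 1 in 20. Resolution library 2 accounted for 3 of them, with Plod3 at 641 CPM, Loxl1 at 646 CPM and Loxl2 at 350.2 CPM, each above the other 3 resolution libraries. Loxl4 was 41.6 CPM in resolution library 4, above the 37.9 to 38.5 CPM of the others. P4ha1 was 733 CPM in inflammation library 4, above 586 to 611 CPM. P4ha2 was 799 CPM in homeostasis library 1, below 1110.0 to 1171 CPM. These are given as values, with no explanation weighed.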

How the results depend on the processing

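Of the log2 fold changes of the 10 enzymes, Loxl3, P4hb, Col1a1 and Col1a2 under the alternatives, 818 kept direction and side of the threshold, 23 lost a call, 20 gained one and 35 changed sign. The sign changes are listed here, and of them only P4ha2 in resolution against homeostasis with the GC and length offsets passed the threshold (adjusted p = 0.0037). P4ha2 in resolution against homeostasis was 0.0020 with DESeq2, 0.0020 with RLE factors, 0.025 with upper-quartile factors, 0.0044 in the fit to 2 groups, 0.14 with homeostasis 1 and 2 as the sole homeostasis libraries, and 0.36 with the GC and length offsets. Loxl3 in inflammation against homeostasis was 0.064 with upper-quartile factors, 0.026 in the fit to 2 groups, 0.010 with homeostasis 1 and 2 alone and 0.20 with the offsets. P4ha2 in inflammation against homeostasis was -0.081 with homeostasis 3 and 4 alone. With the offsets, P4ha3 was 0.18 in resolution and 0.023 in inflammation against homeostasis, and in resolution against inflammation P4ha2 was 0.11, P4ha3 0.15, Plod3 0.0020 and Loxl1 0.030. The offsets also called 7 of the 10 in inflammation against homeostasis and 5 in resolution against inflammation. Why GC content moves these values was not tested.

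With the replicate block in the fit to all 12 libraries, 1 of the 10 was called in resolution against inflammation. With the block in the fit to the 8 libraries of those groups, 4808 genes were called (2585 higher and 2223 lower). The block changed no other call of the 10 than those of Plod1 and Plod3 between these groups.

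Leaving out each library in turn gave 1242 to 4191 called genes and 1 to 3 of the 10 in resolution against inflammation. The count of genes was 4191 without resolution 2, and 1584, 1299 and 1242 without resolution 1, 3 and 4, and 1443 and 1351 without inflammation 1 and 2. Over the same fits P4ha2 ran from -0.13 to 0.076 in resolution and from -0.062 to 0.097 in inflammation against homeostasis, and from -0.16 to 0.025 between them, and Loxl3 ran from -0.036 to 0.048 in inflammation against homeostasis. The calls of P4ha1, Lox and Loxl4 against homeostasis, of Plod1, Plod3 and Loxl1 in resolution against homeostasis, and of Loxl2 in resolution against inflammation held in all 12 fits. Resting on 4 libraries a group of unknown origin and on groups that differ in sex-linked genes, these results describe these libraries.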
